A study of Mus musculus with 8 samples.

Results

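Gata2, Gata3, Gata4 and Gata6 encode GATA factors, and the chromatin loops at these 4 gene loci were taken from FOXA1 and HNF4G Hi-ChIP of mouse pancreatic cancer cells. Each loop joins 2 stretches of a chromosome, its anchors, that were ligated together while FOXA1 or HNF4G was bound. It was counted for a gene if 1 of its anchors lay within 2 kb of an annotated start of the gene, here called a promoter loop, or if both anchors lay within 250 kb of a start, here called a window loop. Of 249200 distinct loops in the series, 192 met this rule, of which 79 were promoter loops and 113 were window loops away from the GATA promoters. The series held 8 samples in 4 groups of 2 replicates. These were FOXA1 Hi-ChIP (antibody ab5089) and HNF4G Hi-ChIP (antibody HPA005438), each in a KPC primary tumor line and in the matched liver metastasis (liver mets) line. KPC mice carry engineered alleles that give rise to pancreatic cancer. All samples were labelled wild type and untreated and the cells were grown in DMEM with FBS, so a genotype or treatment contrast was not part of the design, and each context was represented by 1 line.

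GATA factors are zinc-finger transcription factors that bind the DNA word GATA and its flanking bases. Gata2 and Gata3 are best known from blood and lymphoid development, and Gata3 also from mammary and other epithelia. Gata4 and Gata6 act in the endoderm, including the early pancreas, and GATA6 is a widely used marker of the classical, better differentiated form of pancreatic cancer. FOXA factors are known as pioneer factors that open chromatin for others. For FOXA1 in pancreatic cancer, the authors of these data propose a nonpioneering role. HNF4G is an orphan nuclear receptor of the HNF4 family.

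Each group had 1 loop list that covered both replicates, so no spread between replicates could be calculated and no test between groups was run. For FOXA1 the liver mets list held 125623 loops and the tumor list 104136, for HNF4G these were 78098 and 76323, and sequencing depth is unknown. Where 4 values are given without names below, they follow this order. Intervals below are 95% intervals for counting error only, and loops that share an anchor are not independent. The value of a loop was taken to be a −log10 adjusted p from the values alone. Many loops held 1 of 2 tied values per list, the higher of which was 1.87, 1.91, 1.99 and 1.99, so equal values from different lists are not equal evidence. Of the loops at the GATA loci, 27.9% to 42.7% per list held a tied value.

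The sequences shown here are 300-base windows of Gata2, Gata3 and Gata4 promoter or partner anchors, from RefSeq's GRCm38 sequence (mm10), plus strand. Capitals mark the FOXA core word TGTTTAC, the core word of GATA factors, AGATAA, and the HNF4 word CAAAGTCC, on either strand. Both strands were searched, each word was counted separately, and no word contains another. Within an anchor, the window holding the most of the 3 words was taken, or the first of those that tied. The words in a window therefore follow from how it was chosen and are not a result. The Gata2 promoter window, at chr6:88200113-88200412, spans the edge of an intron and a coding exon of Gata2 and holds 1 FOXA word at its end. The distal Gata2 window, at chr6:88498595-88498894, opens the intergenic anchor of the Gata2 loop with the highest value. It holds none of the 3 words, and it was added after the values were seen. The Gata3 window, at chr2:9882187-9882486, comes from the Gata3 promoter anchor with the most loops, of which only an edge lies within 2 kb of a Gata3 start. The window itself lies 3587 bp from the nearest such start, in an intron of Gata3 and of 4930412O13Rik, and holds a FOXA word and an HNF4 word. The Gata4 intron window, at chr14:63230592-63230891, comes from the partner that the Gata4 promoter was joined to in the most lists, and holds 2 GATA words.
Gata2 promoter anchor: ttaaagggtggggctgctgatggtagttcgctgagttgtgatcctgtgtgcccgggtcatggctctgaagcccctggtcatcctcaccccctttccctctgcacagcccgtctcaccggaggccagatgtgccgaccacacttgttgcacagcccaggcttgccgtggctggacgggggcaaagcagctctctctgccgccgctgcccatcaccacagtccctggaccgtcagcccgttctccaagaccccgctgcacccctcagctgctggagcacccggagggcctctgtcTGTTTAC
Gata2 distal partner: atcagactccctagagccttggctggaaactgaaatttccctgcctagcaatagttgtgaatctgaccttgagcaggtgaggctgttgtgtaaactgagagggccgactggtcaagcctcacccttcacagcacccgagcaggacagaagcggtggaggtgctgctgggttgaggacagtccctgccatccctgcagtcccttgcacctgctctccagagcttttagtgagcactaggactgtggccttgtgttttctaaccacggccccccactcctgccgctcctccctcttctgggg
Gata3 intron in promoter anchor: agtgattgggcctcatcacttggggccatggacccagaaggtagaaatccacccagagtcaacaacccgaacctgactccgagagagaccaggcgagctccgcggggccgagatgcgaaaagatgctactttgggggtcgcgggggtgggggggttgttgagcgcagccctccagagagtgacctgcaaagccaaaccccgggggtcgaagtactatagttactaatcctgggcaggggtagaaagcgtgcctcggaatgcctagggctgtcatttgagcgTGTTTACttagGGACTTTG
Gata4 intron partner: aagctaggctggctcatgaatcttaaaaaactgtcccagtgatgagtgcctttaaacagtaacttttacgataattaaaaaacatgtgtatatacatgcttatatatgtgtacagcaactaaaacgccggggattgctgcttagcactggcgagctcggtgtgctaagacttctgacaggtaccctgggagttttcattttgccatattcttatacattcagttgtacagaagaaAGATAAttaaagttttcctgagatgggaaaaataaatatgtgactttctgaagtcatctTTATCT

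The 67 partners of the GATA promoters held FOXA and GATA words at densities close to those of all anchors. GATA words occurred at 0.564 per kb in the partners and at 0.540 per kb in all 30542 anchors of the series, and FOXA words at 0.151 and 0.179 per kb. HNF4 words numbered 4 in the 192 kb of the partners, or 0.0209 per kb, against 0.0489 per kb in all anchors. With so few words and no interval for counting error, this difference is not read further. The Gata6 promoter anchor held 5 GATA words in 3.52 kb (1.42 per kb) and no FOXA or HNF4 word. The Gata4 promoter anchor held 1 GATA and 2 HNF4 words, and the 3 Gata3 promoter anchors held 4 FOXA words and 1 HNF4 word. Of 32851 RefSeq mouse promoters of 300 bases, 3.65% held the FOXA word, 11.2% the GATA word and 1.42% the HNF4 word. The table held promoters of 3 members, and none of them held any of the words. A match to a word is a description of the sequence and not a binding site.

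**Figure D1:**
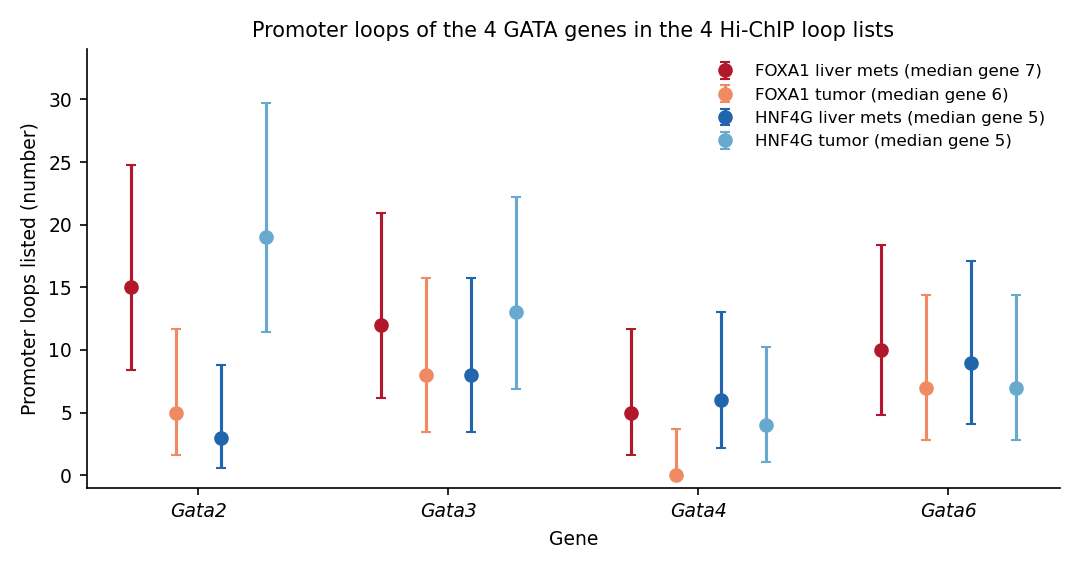
Number of promoter loops of Gata2, Gata3, Gata4 and Gata6 in each loop list, with exact Poisson 95% intervals for counting error as bars and the median over 10786 coding genes in the legend. Gata2 had 15 and 19 loops in the FOXA1 liver mets and HNF4G tumor lists and 5 and 3 in the other two, and Gata4 had none in the FOXA1 tumor list.

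The 4 promoters carried unequal numbers of loops. With FOXA1 the Gata2 promoter had 15 loops in liver mets and 5 in tumor, and with HNF4G it had 3 in liver mets and 19 in tumor. These numbers were high in 1 list of each factor and low in the other, on opposite sides. The Gata3 promoter anchors had 12, 8, 8 and 13 loops by list, which ranks the lists much as Gata2 does over a smaller range. The Gata4 promoter had 5, 0, 6 and 4 loops. The Gata6 promoter had 10, 7, 9 and 7 loops, the narrowest range of the 4 genes. Among 10786 coding genes with a promoter anchor the median number was 7, 6, 5 and 5. Gata2 in HNF4G tumor exceeded 90.5% of these genes, whereas in HNF4G liver mets it exceeded 29.7%. Gata6 exceeded between 51.5% and 71.1% of the genes in every list. The 0 loops of Gata4 in FOXA1 tumor allow up to 3 by counting alone, and 4.54% of the genes had none in that list.

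Summed over the 4 genes, promoter loops numbered 42 in FOXA1 liver mets and 20 in FOXA1 tumor, a ratio of 2.10 (1.21 to 3.78). The corresponding numbers for HNF4G were 26 and 43, a ratio of 0.605 (0.357 to 1.01). The whole lists had ratios of 1.21 for FOXA1 and 1.02 for HNF4G. Divided by list length, the promoter loop ratios were 1.74 (0.9995 to 3.13) for FOXA1, an interval that included 1, and 0.591 (0.349 to 0.984) for HNF4G, one that did not. The HNF4G value rested on Gata2, since the other 3 genes had 23 and 24 HNF4G promoter loops, a ratio of 0.958 (0.517 to 1.77). For FOXA1 the other 3 genes gave 27 and 15 loops, a ratio of 1.80 (0.924 to 3.64). With window loops included, the ratios were 1.41 (1.03 to 1.92) for FOXA1, from 104 and 74 loops, and 0.867 (0.612 to 1.22) for HNF4G, from 65 and 75 loops. After division by list length these were 1.17 (0.856 to 1.59) and 0.847 (0.598 to 1.20).

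Fold differences at single genes were read against those of all coding genes with at least 10 promoter loops in either list. FOXA1 promoter loops were at least 1.5 times as many in liver mets as in tumor for 2 of the 3 GATA genes compared, Gata2 and Gata3, and for 24.9% of 4666 genes. All 3 reached 10 loops in the liver mets list only, so none of them could come out lower. Over all genes compared, 6.02% were lower by this fold. HNF4G promoter loops were lower in liver mets by at least 1.5 times for both GATA genes compared, again Gata2 and Gata3, and for 18.2% of 3337 genes. Both reached 10 loops in the tumor list only, so neither could come out higher. Over all genes compared, 11.9% were higher by this fold. Both directions together, higher for FOXA1 and lower for HNF4G, held for Gata2 and Gata3 and for 3.78% of 3149 genes. For Gata2 and Gata3 these directions were fixed by the lists through which they passed the minimum, and only the size of the fold was free. The share over all genes covers genes that passed through either list, so it is not a like comparison. Gata3 stood at the limit, with a FOXA1 ratio of 1.5 (0.564 to 4.23) and an HNF4G ratio of 0.615 (0.221 to 1.60), so its intervals included equal numbers. If loop numbers were divided by the length of their list, the share of genes higher for FOXA1 was 11.7% and the share lower was 12.6%, and Gata3 no longer passed for FOXA1. Of the genes past the fold for FOXA1, 80.5% were higher in liver mets before this division and 48.3% after it. Gata4 had fewer than 10 loops in every list and was not compared, and Gata6 was compared for FOXA1 only.

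Gata2, which encodes a factor of blood stem and progenitor cells, showed the widest range between lists. Its 1 promoter anchor, at chr6:88197040-88201304, covered 2 annotated starts and took part in 30 distinct loops to 30 partners. FOXA1 loops were 3 times as many in liver mets as in tumor (1.04 to 10.6), or 2.49 times (0.859 to 8.75) after division by list length, when the interval included 1. For HNF4G the ratio was 0.158 (0.0299 to 0.536), and 0.154 (0.0292 to 0.524) after division. A FOXA1 ratio this high was found for 93 of the 4666 genes compared, and an HNF4G ratio this low for 8 of 3337, counting Gata2. Both together were found for Gata2 alone, of 3149 genes compared for both factors. The limits are the ratios of Gata2 itself, so these counts give its rank and are not a test. Loops of the window around Gata2 that did not touch its promoter numbered 22, 18, 16 and 19, so the wide range was seen at the promoter anchor and not in its surroundings. With only loops of a value of at least 1.3, an adjusted p of 0.05, the numbers were 9, 4, 2 and 16, in the same order of lists.

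The partners of Gata2 also differed between lists. No Gata2 promoter loop was listed in both FOXA1 lists, which allowed shares of up to 20.4% in liver mets and 43.4% in tumor, whereas over the whole lists 34.04% of FOXA1 liver mets loops and 41.1% of tumor loops were in both. A further 2 were listed in both HNF4G lists, which was 66.7% of the 3 in liver mets and 10.5% of the 19 in tumor, against 32.9% and 33.6% of the whole lists. FOXA1 liver mets and HNF4G tumor shared 8 loops, which were 53.3% of the first and 42.1% of the second, against 26.2% and 43.2% of the whole lists. These whole-list shares were not matched for span. Gata2 promoter loops had median FOXA1 spans of 266 kb in liver mets and 602 kb in tumor, against 164 and 141 kb over the whole lists. With anchors widened by 5 kb on each side, 5 of the 15 FOXA1 liver mets loops had a match in FOXA1 tumor and 3 of the 5 tumor loops had a match in liver mets, so several partners of the 2 FOXA1 lists lay close together without coinciding. No Gata2 promoter loop was found in all 4 lists, and 19 of 30 (63.3%) were found in 1 list only, close to the 65.6% of all loops in the series, of which 5.28% were in all 4.

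**Figure D2:**
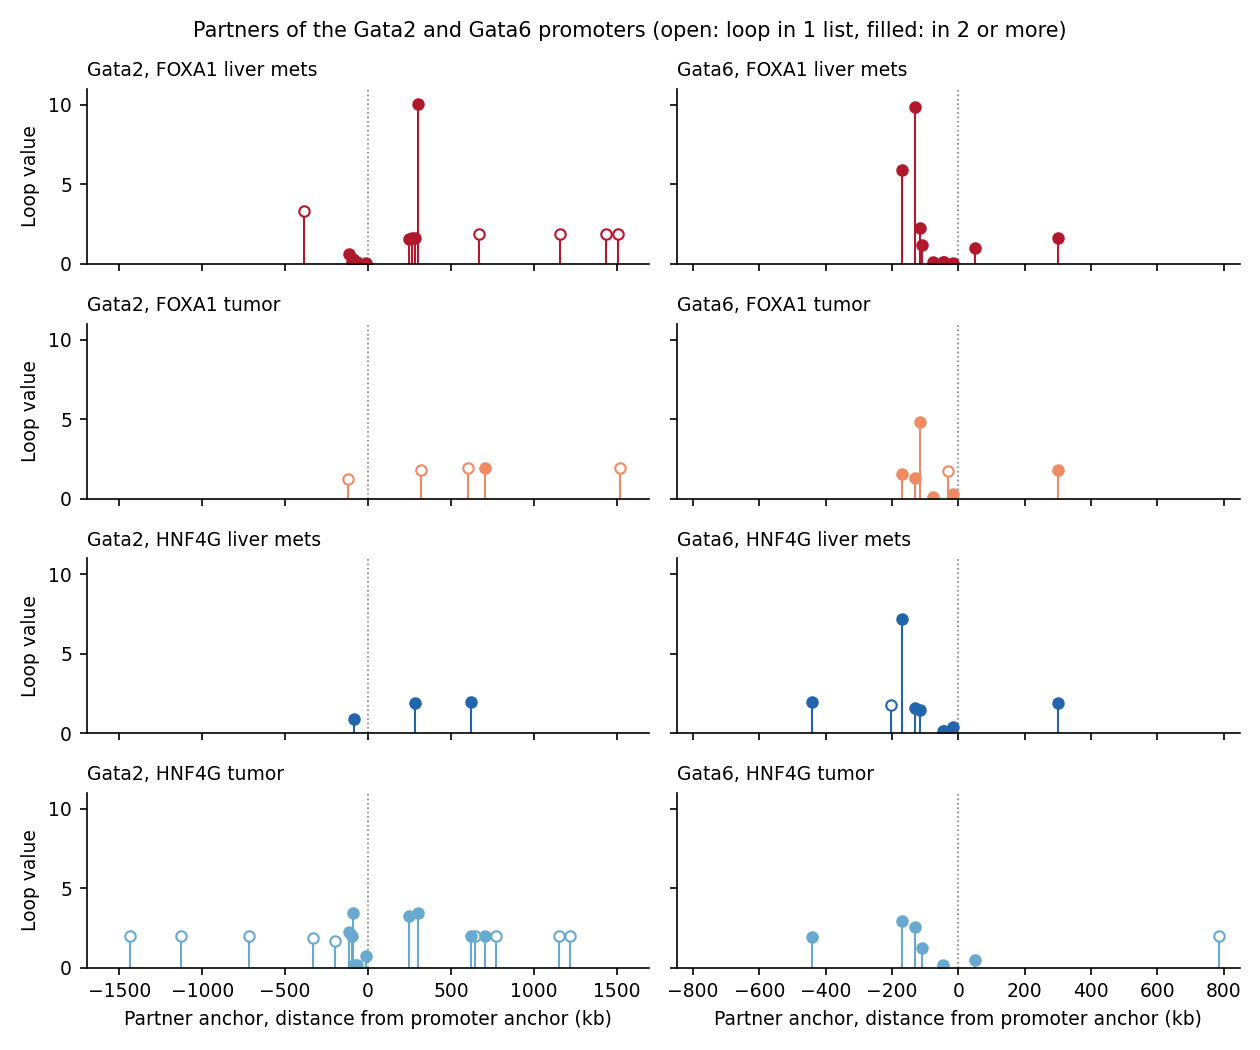
Loops of the Gata2 (left) and Gata6 (right) promoter anchors in each list, by the distance of the partner anchor in kb along the direction of transcription (negative is upstream) and by loop value. Open circles are loops found in 1 list and filled circles loops found in more, and the tallest Gata2 loop lies 301 kb downstream while the tallest Gata6 loops lie 131 kb and 170.2 kb upstream.

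The highest value of a Gata2 loop was 10.0, in FOXA1 liver mets, for an intergenic partner 301 kb downstream at chr6:88498595-88501392. The same loop had a value of 3.46 in HNF4G tumor and was absent from the other 2 lists. The partner lay 4.98 kb from the nearest coding start, that of Sec61a1, a channel subunit of the endoplasmic reticulum. FOXA1 tumor instead listed a loop to an anchor at the Sec61a1 start, 319 kb away, at 1.80. The other named loop of FOXA1 liver mets joined Gata2 to Rab43, a small GTPase, 388 kb upstream, at 3.35 and in that list only. HNF4G tumor listed a loop of 3.42 to an exonic anchor of Rpn1, a subunit of the glycosylation machinery 91.7 kb upstream, which had 0.334 in FOXA1 liver mets. Eefsec, a translation factor for selenoproteins with a start 248 kb downstream, was joined at 3.24 in HNF4G tumor and 1.55 in FOXA1 liver mets. All of these pairs with 2 values came from the same 2 lists.

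Longer Gata2 loops mostly had values near or at the higher tied value. In FOXA1 tumor the highest loops were tied at 1.91, and the longest of them reached 1519 kb to an intergenic anchor and 705 kb to Tpra1, a membrane protein gene. HNF4G liver mets had only 3 loops, to Mgll, a monoglyceride lipase gene 623 kb away at 1.99, to an exon of Ruvbl1, an ATPase of chromatin remodeling complexes 284 kb away at 1.89, and to an intergenic anchor 85.9 kb upstream at 0.889. That last partner, at chr6:88112432-88114108, was the one found in the most lists, with further values of 0.0889 (FOXA1 liver mets) and 0.171 (HNF4G tumor). Of the 30 partners, 12 lay within 2 kb of a coding start and 15 at no start at all. Partners beyond 500 kb made up 9 of the 19 HNF4G tumor loops, and 7 of those 19 loops held the higher tied value.

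Gata6, the endodermal factor of the family, had the most constant set of partners. Its promoter anchor, at chr18:11050705-11054223, also covers the start of the noncoding gene 1010001N08Rik and had 14 distinct loops. Of these, 3 (21.4%) were in 1 list only, compared with 63.3% for Gata2, 60% for Gata3 and for Gata4, and 65.6% of all distinct loops in the series. These shares were not matched for span, and 11 of the 14 Gata6 partners lay within 250 kb. The partner 170.2 kb upstream, at chr18:10880617-10883929, had FOXA1 values of 5.92 in liver mets and 1.53 in tumor, and HNF4G values of 7.18 in liver mets and 2.93 in tumor. The partner 131 kb upstream, at chr18:10920000-10922264, had 9.87, 1.298, 1.57 and 2.59. Both were intergenic, with Mib1, an E3 ligase gene of Notch signaling, as the nearest coding start. For both partners the liver mets value was higher than the tumor value in the FOXA1 lists, whereas in the HNF4G lists it was higher at 170.2 kb and lower at 131 kb.

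Another upstream partner of Gata6, 116 kb away, had its highest value in FOXA1 tumor, at 4.81, with 2.27 and 1.47 in the FOXA1 and HNF4G liver mets lists, and was absent from HNF4G tumor. The next highest loop of FOXA1 tumor reached 301 kb downstream at 1.78 and was also in both liver mets lists, at 1.65 and 1.91. Esco1, a cohesin acetyltransferase gene 442 kb upstream, was joined in the HNF4G lists only, at 1.98 in liver mets and 1.96 in tumor. Of the 14 Gata6 partners, 11 lay upstream, 2 were at coding starts and 8 were intergenic without a start. The only partner beyond 500 kb was Cables1, a gene of a cyclin-dependent kinase substrate, 787 kb downstream in HNF4G tumor at the tied value of 1.99. FOXA1 tumor listed 6 of its 7 Gata6 loops in common with FOXA1 liver mets, which was 85.7% (48.7 to 97.4), against 41.1% of the whole list. Within the span ranges of all FOXA1 tumor loops at the GATA loci, the share of the whole list was 53.4%, which that interval included. No whole-list share here was matched to the spans of Gata6 alone. The HNF4G lists had 4 Gata6 loops in common, 44.4% (18.9 to 73.3) of liver mets and 57.1% (25.05 to 84.2) of tumor, and these intervals included the 32.9% and 33.6% of the whole lists. Window loops away from the promoter numbered 21, 22, 11 and 9, more in both FOXA1 lists than in both HNF4G lists. The whole FOXA1 lists were also longer, 1.61 times in liver mets and 1.36 times in tumor. Divided by list length, all Gata6 loops gave FOXA1 to HNF4G ratios of 0.964 (0.532 to 1.78) in liver mets and 1.33 (0.698 to 2.62) in tumor. Both of these intervals included 1.

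Gata3, a factor of T cells and of luminal epithelia, had 3 promoter anchors between chr2:9877980 and chr2:9888428, so some of its 25 distinct loops start from different anchors to the same partner. Counting partners once gave 13. A pair of its loops was in all 4 lists. The loop from an intergenic anchor 86.3 kb downstream, at chr2:9791579-9793294, had values of 0.351, 0.123, 1.97 and 1.10. The loop between 2 of the promoter anchors, 5.38 kb apart, had 0.0474, 0.839, 1.61 and 3.60. In both, the HNF4G values exceeded the FOXA1 values of the same cell line. The highest FOXA1 values belonged to a loop of 258 kb to an intergenic anchor at chr2:9619994-9621821, with 2.88 in liver mets, 3.15 in tumor and 1.84 in HNF4G tumor. HNF4G liver mets joined that same anchor to the neighboring promoter anchor, over 261 kb, at 1.85.

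**Figure D3:**
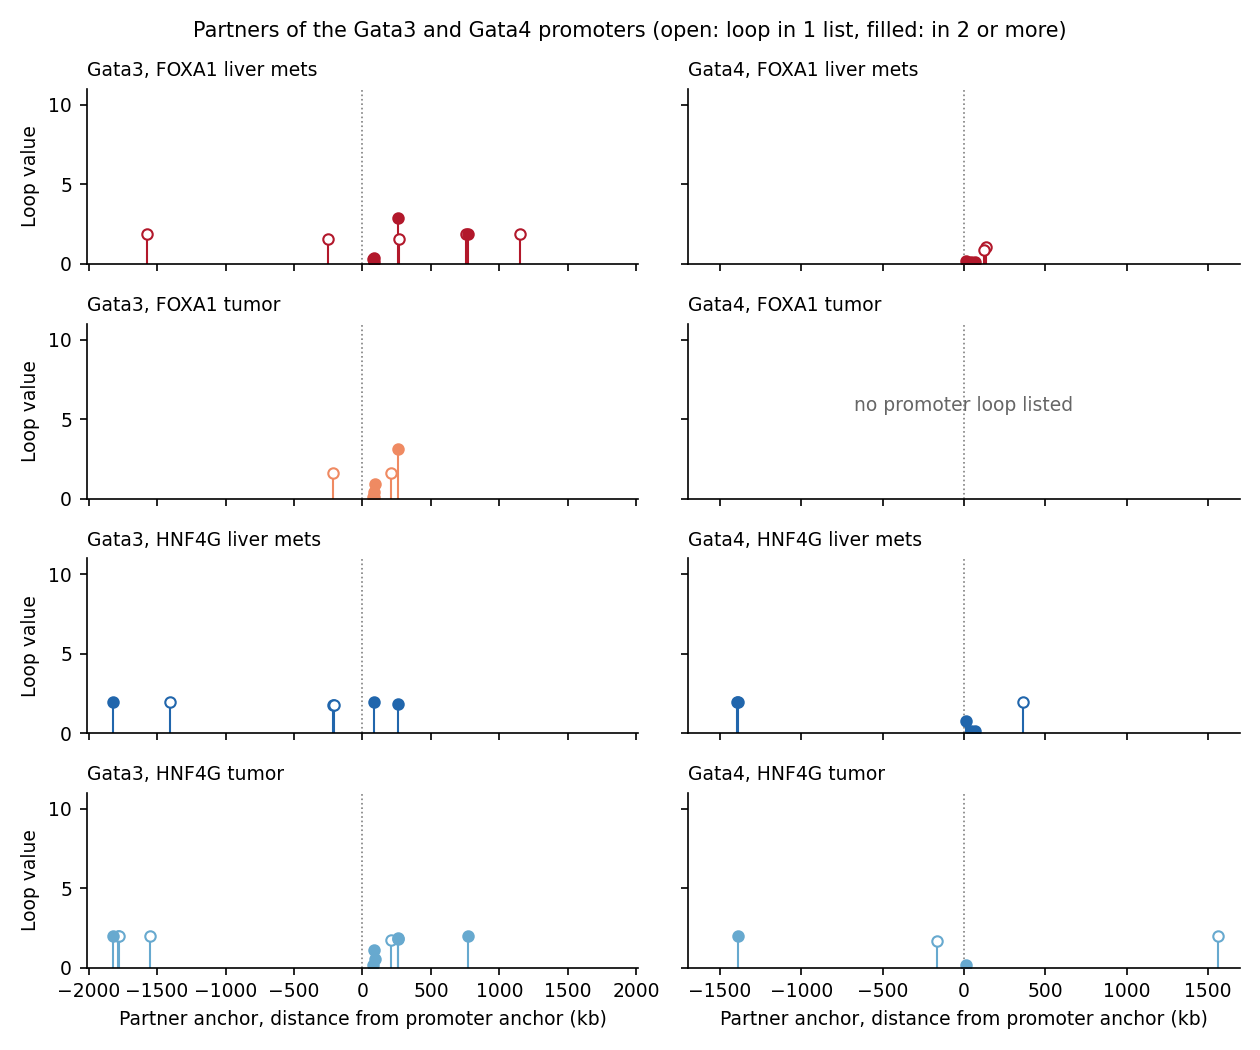
Loops of the Gata3 (left) and Gata4 (right) promoter anchors in each list, drawn by partner distance in kb along the direction of transcription and by loop value, with open circles for loops in 1 list and loops between 2 Gata3 promoter anchors left out. Most Gata3 loops in FOXA1 tumor lie within 258 kb downstream, HNF4G loops reach 1824 kb upstream, and Gata4 has no loop in FOXA1 tumor.

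The Gata3 loops of over 1 Mb in the HNF4G lists all held the higher tied value. The promoter of Il15ra, the receptor chain for interleukin 15, lay 1824 kb upstream and was listed at 1.99 in both HNF4G lists and in neither FOXA1 list. An intronic anchor of Il2ra was joined in HNF4G tumor only, over 1783 kb, and one in Prkcq, a T cell kinase gene, in HNF4G liver mets only, over 1407 kb. An intergenic anchor whose nearest coding start is that of Pfkfb3, a glycolysis regulator gene, was joined in HNF4G tumor only, over 1551 kb. The FOXA1 tumor list held none of its 8 Gata3 loops beyond 500 kb, whereas 4 of 12 in FOXA1 liver mets were that long, and the HNF4G lists held 2 of 8 (liver mets) and 5 of 13 (tumor). The longest FOXA1 liver mets loop, of 1571 kb, ended at an intergenic anchor at the tied 1.87. Second in FOXA1 tumor was a loop of 211 kb to another intergenic anchor at 1.64. Of the 13 partners, 8 were intergenic without a start and 2 lay at coding starts, while 5 lay within 250 kb and 7 beyond 500 kb.

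Gata4, a factor of heart and endoderm, had the fewest promoter loops, 10 in all from the anchor at chr14:63244655-63246529. No loop was in all 4 lists. The partner in the most lists was an anchor in an intron of Gata4 itself, 14.4 kb downstream at chr14:63229987-63232351, with a FOXA1 value of 0.172 in liver mets and HNF4G values of 0.770 in liver mets and 0.171 in tumor. That anchor held 6 GATA words in 2365 bases, 2 of them in the window printed above. An exonic anchor of Gata4 at 40.3 kb and the start of Fdft1, the squalene synthase gene at 68.1 kb, were each joined in both liver mets lists and in neither tumor list, at 0.0889 for FOXA1 and 0.146 for HNF4G, the lower tied values. FOXA1 liver mets gave its highest values to an intergenic anchor at 134 kb, with 1.07, and to Ctsb, the cathepsin B gene at 123 kb, with 0.871. The highest HNF4G loops were tied and long, to 2 anchors near Kif13b, a kinesin gene, 1395 kb and 1388 kb upstream in liver mets, and to the Dleu2 region 1563 kb downstream and again to the 1388 kb anchor in tumor. No FOXA1 loop of the Gata4 promoter had a value of at least 1.3, and 3 loops did in each HNF4G list.

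Although FOXA1 tumor listed no loop of the Gata4 promoter, its list held 11 window loops around the gene, compared with 16 such loops away from the promoter in FOXA1 liver mets and, for HNF4G, 10 in liver mets and 3 in tumor. The only Gata4 locus loop in all 4 lists had both of its anchors within 2 kb of an annotated Fdft1 start. These anchors lay 12.7 kb apart, and the values were 0.0820, 0.121, 0.336 and 0.152.

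**Figure D4:**
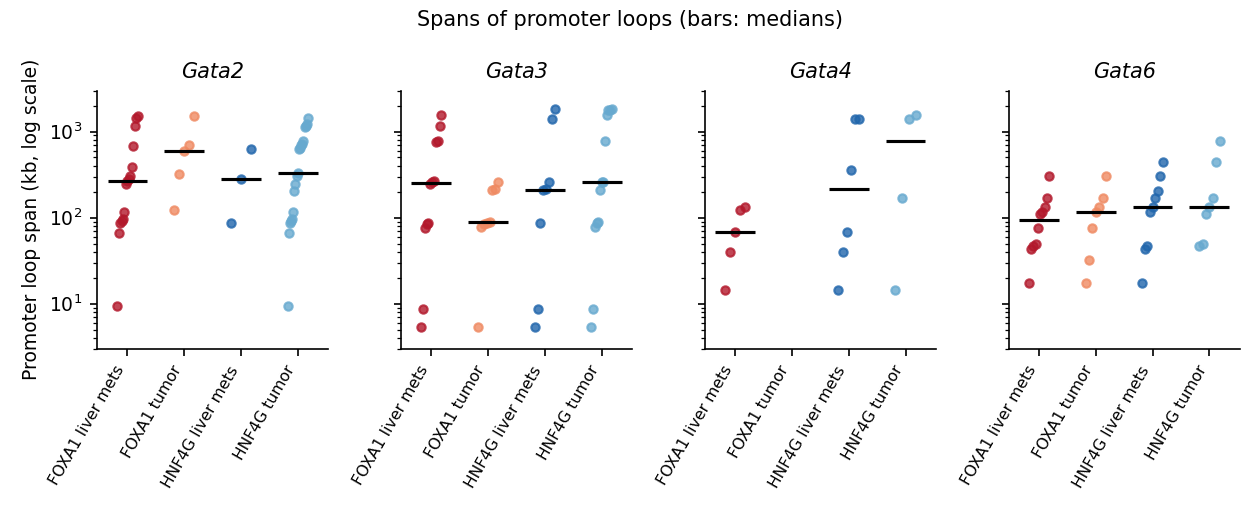
Span of each promoter loop in kb on a log scale, by gene and list, with the median of each list as a bar. Gata6 spans stay within 787 kb in every list, whereas Gata2, Gata3 and, in the HNF4G lists, Gata4 also have loops of over 1 Mb.

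Promoter loops had median FOXA1 spans of 119 kb (85.9 to 258) in liver mets and 128 kb (83.6 to 258) in tumor, and median HNF4G spans of 187 kb (68.1 to 301) in liver mets and 258 kb (115 to 705) in tumor. These intervals overlapped. With window loops added, the medians were 76.9, 65.5, 81.5 and 98.6 kb, against 164, 141, 114 and 131 kb over the whole lists, but the window rule itself limits how long a window loop can be. Gata6 medians lay between 93.0 kb and 131 kb, the least spread of the 4 genes. Gata2 medians lay between 266 kb and 602 kb, the highest of them from the 5 loops of FOXA1 tumor. Loops over 1 Mb numbered 5, 1, 4 and 10 across the 4 genes, and those of HNF4G tumor came from Gata2, Gata3 and Gata4.

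**Figure D5:**
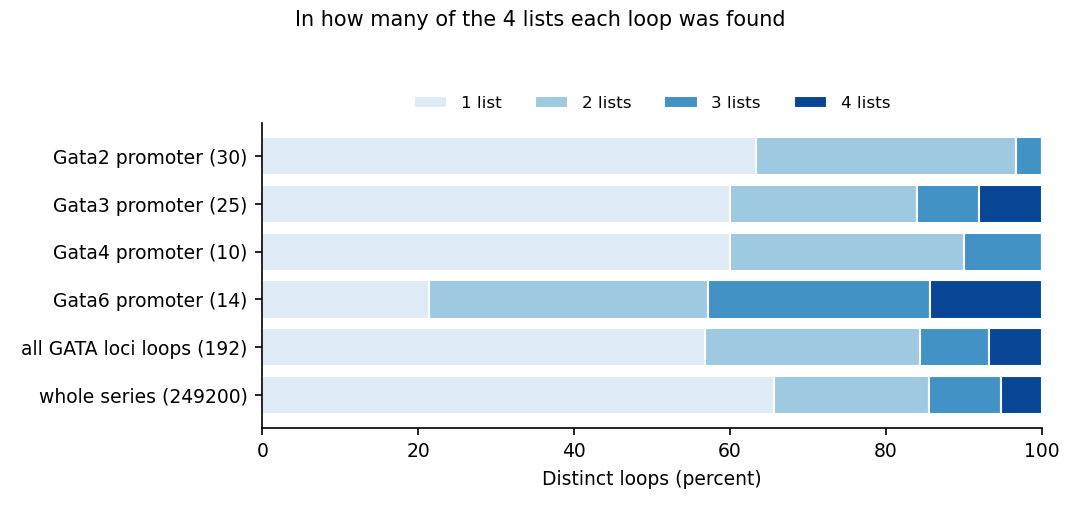
Share of distinct loops found in 1, 2, 3 or 4 of the lists, for the promoter loops of each gene, for all loops at the GATA loci and for the whole series, with the number of loops in parentheses. The Gata6 promoter has the smallest share in 1 list, 21.4%, and the whole series has 65.6%.

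In all, 109 of the 192 distinct loops (56.8%) were in 1 list only and 13 (6.77%) in all 4, against 65.6% and 5.28% of the series. The 13 were made up of 4 at Gata2, 3 at Gata3, 1 at Gata4 and 5 at Gata6, and 4 of them were promoter loops. At Gata2 the common loops linked anchors around Rab7 and Rpn1, upstream of the gene, and the highest value among them was 4.67 in HNF4G liver mets for a loop of 5.04 kb at Rpn1. Loops in both liver mets lists and neither tumor list numbered 7 (3.65%, against 3.64% of the series), and loops in both tumor lists and neither liver mets list numbered 8 (4.17%, against 2.48%). Of the FOXA1 liver mets promoter loops, 23.8% (13.5 to 38.5) were also in FOXA1 tumor, compared with 35.8% of that whole list within the same span ranges and 34.04% at all spans. In the reverse direction 50% (29.9 to 70.1) of FOXA1 tumor promoter loops were found in liver mets, compared with 40.5% and 41.1%. For HNF4G, 50% (32.1 to 67.9) of the liver mets promoter loops were also in tumor, compared with 29.7% of that list in the same span ranges and 32.9% of it at all spans, and 30.2% (18.6 to 45.1) of the tumor promoter loops were in liver mets, compared with 24.99% and 33.6%. The HNF4G liver mets interval lay above the share in the same span ranges but included that at all spans.

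Over the 67 partners outside the GATA promoters, 18 lay at coding starts, 4 at noncoding starts only and 45 at no start, of which 26 were intergenic. Upstream and downstream partners were nearly equal in number over the 4 genes, at 34 and 33, but 11 of 14 lay upstream for Gata6 and 7 of 10 downstream for Gata4. Genes with promoter loop numbers most like those of each member were taken by the distance of log2(number + 1) over the 4 lists. Nearest to Gata2 were 4930539E08Rik (distance 0.674) and Wnt6 (0.731), and to Gata3 Usp49 (0.0995) and Ccdc57 (0.186). Vps33a (0.391) and Acaca (0.534) were nearest to Gata4, and D10Jhu81e (0.126) and Nrp2 (0.138) to Gata6. Wnt6 had 9, 4, 3 and 18 promoter loops, so its numbers went with the lists in the same order as those of Gata2.

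Of 11 relatives and cofactors of the GATA factors, 6 had promoter loops, namely Gata5, Gatad1, Gatad2a, Gatad2b, Zfpm1 and Ldb1. Gata1, Trps1, Zfpm2, Tal1 and Lmo2 had no anchor within 2 kb of a start. FOXA1 promoter loops were more in liver mets than in tumor for 4 of the 6 and fewer for 1, and HNF4G loops were more for 2 and fewer for 3. These counts take a difference of any size and are not set against all coding genes. The whole liver mets list was 1.21 times as long as the tumor list for FOXA1 and 1.02 times for HNF4G. Gata5, the remaining endodermal GATA gene, had 14, 13, 8 and 10 promoter loops, a narrower range than Gata2. Ldb1, which encodes an adaptor that bridges distant regulatory elements in complexes with GATA factors, had 30, 19, 26 and 19. Zfpm1, the gene of the GATA cofactor FOG1, had 29, 26, 14 and 21.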

How the data were processed

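FOXA1 and HNF4G Hi-ChIP was measured in 8 samples of mouse pancreatic cancer lines, 2 per group, grouped by sample titles. The authors aligned reads to mm10 with HiC-Pro (3.1.0 in the submitters' processing notes), assigned them to DpnII fragments, removed duplicates and called loops with hichipper. How replicates were joined is not stated. Per loop, the authors deposited an unnamed value, read here as −log10 of an adjusted p, and a display score, which follows from the value and was not used further. Anchors were compared with GRCm38 and GENCODE M21 starts using Python 3.11.15, pandas 2.3.3, numpy 2.4.6 and scipy 1.17.1, after scripts were tested on simulated loops. Loops were matched between lists when both anchors had the same coordinates. Only with anchors widened by 5 kb was an overlap of both anchors by 1 bp enough. Loop numbers have exact Poisson intervals, ratios Clopper-Pearson intervals and shares Wilson intervals. Sequencing depth is unknown, so the precision it gives cannot be stated. Members, gene lists and rules were chosen with earlier results of these data known. Named partners are those joined in all 4 lists and the 2 of highest value per gene and list, with ties going to the longer span, and others named were chosen after their values were seen. Windows without a word, one overlapping an untranslated region, and Gata6 windows are not printed, except the distal Gata2 window.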

Additional observations from a re-analysis of the deposited data

Results flagged for a closer look

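The liver mets to tumor comparison went in opposite directions for FOXA1 and HNF4G at 2 of the 4 promoters and in their sum. At Gata4 and Gata6 both factors had more promoter loops in liver mets. Differences of any size were flagged, and the share of all coding genes that meet this rule was not calculated. The whole liver mets list was 1.21 times as long as the tumor list for FOXA1 and 1.02 times for HNF4G. Each comparison rests on 1 list per group, so no test of FOXA1 against HNF4G was run. At Gata2 the ratio of promoter loops was 3 for FOXA1 and 0.158 for HNF4G. At Gata3 it was 1.5 for FOXA1 and 0.615 for HNF4G, with intervals for both that included 1. Over the 4 genes it was 2.10 for FOXA1 and 0.605 for HNF4G, and without Gata2 these were 1.80 and 0.958.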

How the results depend on the processing

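No paired analysis was possible because each group had 1 list without values per replicate, so leaving out a replicate was not run either. Values are given for FOXA1 liver mets and tumor, then HNF4G liver mets and tumor. With a window of 100 kb the loop numbers of the first 3 lists were 64, 38 and 43, and with 500 kb those of all 4 were 173, 142, 123 and 122. At a value of at least 1.3 they were 27, 18, 30 and 38, with median spans of 284, 250.4, 206 and 338 kb and shares in the other line of 14.8%, 22.2%, 30% and 23.7%. At a value of at least 2 they were 7, 2, 5 and 7, with median spans of 219.6 and 187 kb for FOXA1, shares of 100%, 20% and 14.3% for the last 3 lists, a FOXA1 ratio of 3.5 (0.666 to 34.5) and 10 distinct promoter loops. Promoter loops alone numbered 42, 20, 26 and 43, with median spans of 119, 128, 187 and 258 kb, ratios of 2.10 and 0.605 and a FOXA1 liver mets share of 23.8%. With anchors widened by 5 kb the shares were 55.8%, 70.3%, 63.1% and 56%. Without Gata2 the HNF4G ratio was 1.24 (0.789 to 1.97), on the other side of 1. The other 88 values of these results under the alternatives stayed within 1.5 times for counts and within their intervals for ratios, shares and spans. Among them, the HNF4G ratio with a window of 500 kb was 1.01 (0.778 to 1.31), also above 1. The interval of the FOXA1 ratio included 1 with that window (0.970 to 1.53) and at a value of at least 1.3 (0.796 to 2.89). It also included 1 without Gata2 (0.899 to 1.93) and without Gata4 (0.938 to 1.86), but not without Gata3 or Gata6. Fewer loops remain under each minimum value, which itself selects long loops. Among counts and ratios of single genes 27 of 118 values moved, mostly under the minimum values, and with promoter anchors within 5 kb Gata2 had 8 FOXA1 tumor loops. Depth is unknown, and the variation between cultures was not measured.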
